A study of Cucumis sativus with 4 samples.

Results

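CsPID is the cucumber gene that the study's title names, a PINOID-type Ser/Thr kinase gene assigned to the round leaf (rl) locus. It was followed as Csa1G537400, 1 gene of the 17480 listed in the deposited table. The rule that picks it uses the identifier and no measured value. The pairing of the identifier with CsPID was taken as given and not from the table, which holds identifiers with no names. The first digit after "Csa" is read here as chromosome 1, as is usual for cucumber identifiers of this form.

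PINOID, best known from Arabidopsis, is an AGC-family protein kinase of the cell membrane. It phosphorylates PIN auxin efflux carriers and so helps to set the side of a cell through which auxin leaves. Arabidopsis plants that lack it form few lateral organs and flowers on pin-shaped inflorescences, and their flowers have altered organ numbers and defective pistils. The amount of the transcript of such a kinase does not by itself give the activity of the protein.

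RNA was sequenced from female flower buds of cucumber (Cucumis sativus) in 4 libraries, replicates 1 and 2 of the round leaf mutant (rl) and replicates 1 and 2 of the wild type (WT). All 4 libraries carry the same source name, cucumber 649, and the same cultivar group, Southern China type. All plants grew in a greenhouse without treatment, and genotype is the only labelled difference. The labels give neither the change in the rl allele, nor the stage of the buds, nor the number of plants behind a library. The level of the CsPID transcript is therefore no check of the genotype labels. No label ties the 2 libraries of a genotype to different plants, so the spread behind each p-value may be technical. Totals were 18345095 and 18097164 reads for rl and 17792057 and 17549219 reads for WT. Levels are in counts per 1000000 reads on the listed genes (CPM).

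CsPID transcript was present in all 4 libraries, at a moderate level in both genotypes. In rl it measured 25.7 CPM in replicate 1 and 35.5 CPM in replicate 2, against 42.0 CPM in WT replicate 1 and 37.6 CPM in WT replicate 2. These values rest on 472 and 642 reads in rl and on 748 and 660 reads in WT. Both rl libraries lay below both WT libraries, so the genotypes did not overlap, but rl replicate 2 stood only 2.13 CPM below WT replicate 2. Of all genes, 21.3% had both rl libraries below both WT libraries in the same way, and 18.3% had both above. The order of the levels was rl replicate 1, rl replicate 2, WT replicate 2 and WT replicate 1, and 1252 genes (7.16%), CsPID included, showed that same order.

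**Figure D1:**
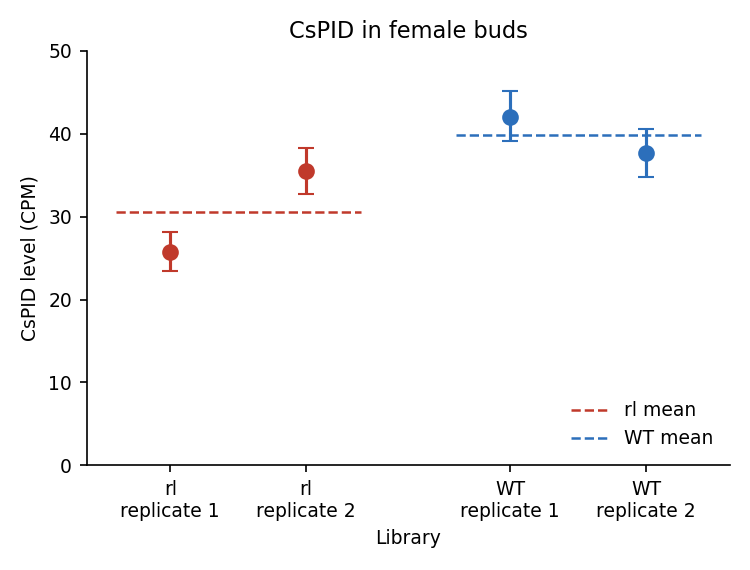
CsPID level in CPM (vertical axis) in each of the 4 female bud libraries (horizontal axis), with exact Poisson 95% intervals of the read count as bars and the mean of each genotype as a dashed line. The libraries of rl lie at 25.7 and 35.5 CPM and those of WT at 42.0 and 37.6 CPM, and rl replicate 1 is the only library whose interval meets no other.

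The counting error of a single library was small beside the distance between the rl libraries. The exact Poisson 95% interval was 23.5 to 28.2 CPM in rl replicate 1, 32.8 to 38.3 CPM in rl replicate 2, 39.1 to 45.2 CPM in WT replicate 1 and 34.8 to 40.6 CPM in WT replicate 2. These intervals cover counting error only. The level in rl replicate 1 was 0.612 of that in WT replicate 1 (95% counting interval 0.544 to 0.688) and 0.684 of that in WT replicate 2 (0.607 to 0.771). The level in rl replicate 2 was 0.844 of that in WT replicate 1 (0.758 to 0.939). It was 0.943 of that in WT replicate 2, with an interval of 0.845 to 1.05 that includes no difference. Neighbours in the order of levels therefore did not all stand apart: rl replicate 2 and WT replicate 2 could not be told apart at this depth.

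Within each genotype the libraries also differed. CsPID in rl replicate 1 was 0.725 of its level in rl replicate 2 (95% counting interval 0.643 to 0.818), a distance of 9.75 CPM. In WT replicate 1 it was 1.12 times its level in WT replicate 2 (1.01 to 1.24), a distance of 4.43 CPM. The difference between the genotype means, at -9.22 CPM for rl minus WT, was thus about as large as the distance between the 2 rl libraries. That sets means of 2 libraries against single libraries, so the measures are not alike. On the log2(CPM + 1) scale, the rl libraries stood 0.45 apart for CsPID, against a median gap of 0.22 over all genes, and 21.5% of genes had a larger gap. The WT libraries stood 0.16 apart for CsPID, against a median gap of 0.17, and 52.8% of genes had a larger gap.

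**Figure D2:**
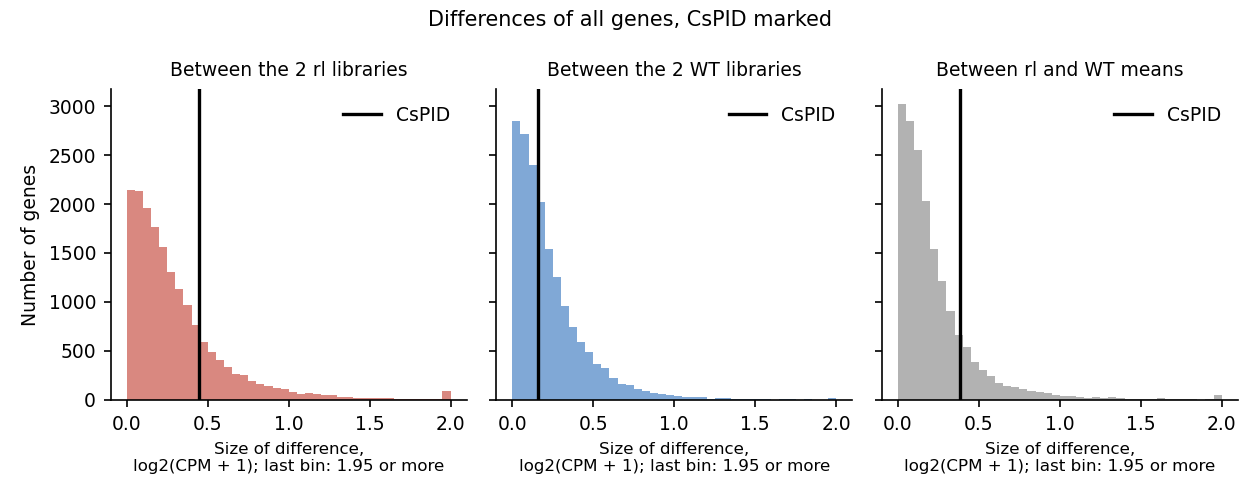
Histograms of the absolute difference in log2(CPM + 1) (horizontal axis) over the 17480 genes (vertical axis, number of genes), between the 2 rl libraries, between the 2 WT libraries and between the genotype means, with CsPID as a black line. CsPID lies at 0.45, 0.16 and 0.38 in the 3 panels, so its gap between rl libraries is wider than its difference between genotypes. The gap is between single libraries and the difference between means of 2, so the measures are not alike.

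The comparison of rl with WT asks whether buds of the mutant carry a different amount of the transcript of the gene after which the study is named. CsPID averaged 30.6 ± 6.89 CPM in rl and 39.8 ± 3.13 CPM in WT (SD, n = 2 each), a mean 23.2% lower in rl. On the log2(CPM + 1) scale the difference was -0.38 (SE 0.19, 95% interval -0.86 to 0.09) for rl minus WT. It did not pass the test over all genes (limma unadjusted p = 0.0949, adjusted p = 0.679). At an unadjusted limma p below 0.05, 4.31% of all genes were lower in rl, and CsPID was not among them either. The interval corresponds to a level in rl between 0.551 and 1.07 times that in WT on this scale, so an unchanged level and a level of 0.551 of WT both lie within it. An exact two-sided permutation test over the 4 libraries gave p = 0.333, the smallest value that 2 libraries against 2 allow. At an adjusted p below 0.05, 0.0286% of all genes were called, all 5 of them lower in rl and CsPID not among them. DESeq2 on recovered reads called genes in both directions, 192 lower and 99 higher in rl, and CsPID was again not among them.

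The size of the CsPID difference depended on which library was left out, and most on the rl libraries. The difference was -0.31 without WT replicate 1 and -0.46 without WT replicate 2. With rl replicate 1 left out it was -0.16 (limma adjusted p = 0.784), and with rl replicate 2 left out it was -0.61 (limma unadjusted p = 0.0115, adjusted p = 0.221). With a single rl library, the spread of CsPID itself comes from the WT pair alone. The lone library is assumed to vary like that pair. The limma fit also draws this spread toward that of genes with a similar level.

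The CsPID difference was larger than the median of all listed genes and far from the largest. It ranked 2442 of 17480 by limma p. A larger fall in rl was measured for 1319 genes (7.55%), and a larger difference in either direction for 2888 genes (16.5%). The median difference of all genes was -0.01 and the median size of a difference 0.16 on the log2 scale. The standard error of CsPID, 0.19, was close to the median standard error of all genes, also 0.19.

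**Figure D3:**
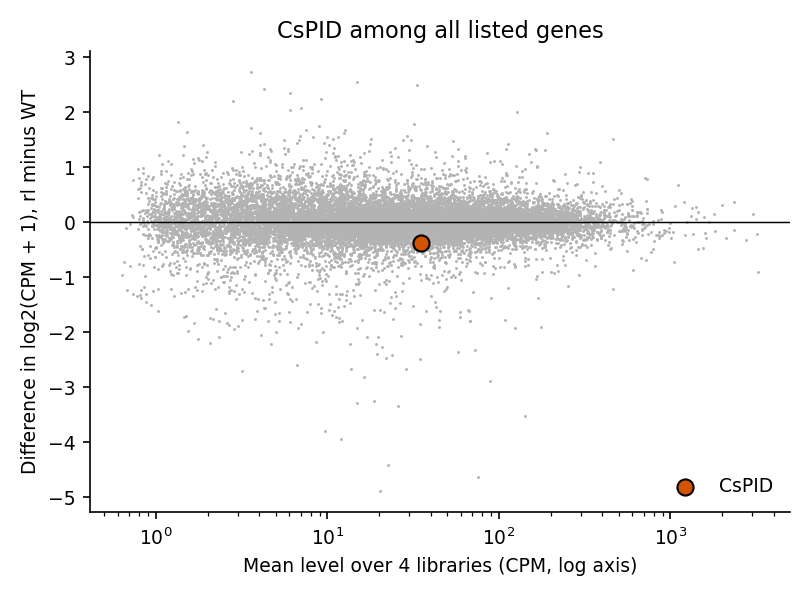
Difference in log2(CPM + 1), rl minus WT (vertical axis), against the mean CPM over the 4 libraries (horizontal log axis) for each of the 17480 genes (grey points), with CsPID as the orange point. CsPID lies at a mean of 35.2 CPM and a difference of -0.38, inside the main body of genes.

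By the number of reads it drew, CsPID stood near the middle of the listed genes. It ranked 8874 from the top in rl replicate 1 and 7316 in rl replicate 2, against 6415 in WT replicate 1 and 7073 in WT replicate 2. The share of genes with fewer CPM was 49.2% and 58.1% in the rl libraries, and 63.2% and 59.5% in the WT libraries. These ranks order genes by CPM, which is not divided by transcript length, so they do not order genes by the number of transcripts. The table holds only genes with at least 1.01 CPM in at least 2 libraries, so the ranks are among expressed genes. Whether fewer cells with the transcript or less transcript per cell lies behind a lower level cannot be told apart in whole buds.

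The nearest listed identifiers on either side of CsPID had higher means in rl, opposite in sign to CsPID. The next lower identifier, Csa1G537370, measured 5.78 and 6.96 CPM in rl replicates 1 and 2, against 3.20 and 5.07 CPM in WT replicates 1 and 2. Its log2 difference was 0.54 (SE 0.26, limma unadjusted p = 0.0860, adjusted p = 0.671). The next higher identifier, Csa1G537410, measured 9.98 and 10.2 CPM in rl replicates 1 and 2, against 5.23 and 6.78 CPM in WT replicates 1 and 2. Its log2 difference was 0.67 (SE 0.21, limma unadjusted p = 0.0189, adjusted p = 0.483). In both genes the rl libraries lay above the WT libraries without overlap, as in 18.3% of all genes. Neither passed the test, which 0.0286% of all genes did. No source used here names these 2 genes. Positions are not given in the table, so how far they lie from CsPID, and whether they overlap it, is not known.

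Over the 10 listed identifiers below CsPID and the 10 above, 13 of 20 had a lower mean log2(CPM + 1) in rl (65.0%), beside 51.8% of all genes. Their log2 differences ranged from -0.57 to 0.67 with a median of -0.10. At an adjusted p below 0.05, 0 of 20 passed limma (lowest limma adjusted p 0.483), and 0 of 20 passed edgeR or DESeq2. Of all 17480 genes, 5 passed limma, 5 edgeR and 291 DESeq2, so 0 of 20 does not set these identifiers apart. An unadjusted limma p below 0.05 was found for 1 of 20, Csa1G537410, higher in rl, as were 3.66% of all genes at that threshold. In 5 of 20 both rl libraries lay below both WT libraries (21.3% of all genes), and in 2 of 20 both lay above (18.3% of all genes), these being Csa1G537370 and Csa1G537410. With 20 identifiers on each side, both rl libraries lay below in 16 of 40 and above in 4 of 40. A difference lower than that of CsPID was measured in 1 of the 20, Csa1G534780 (-0.57), named here after its value was seen. Among the nearest 5 on each side it was measured in 0 of 10, the lowest being -0.34.

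**Figure D4:**
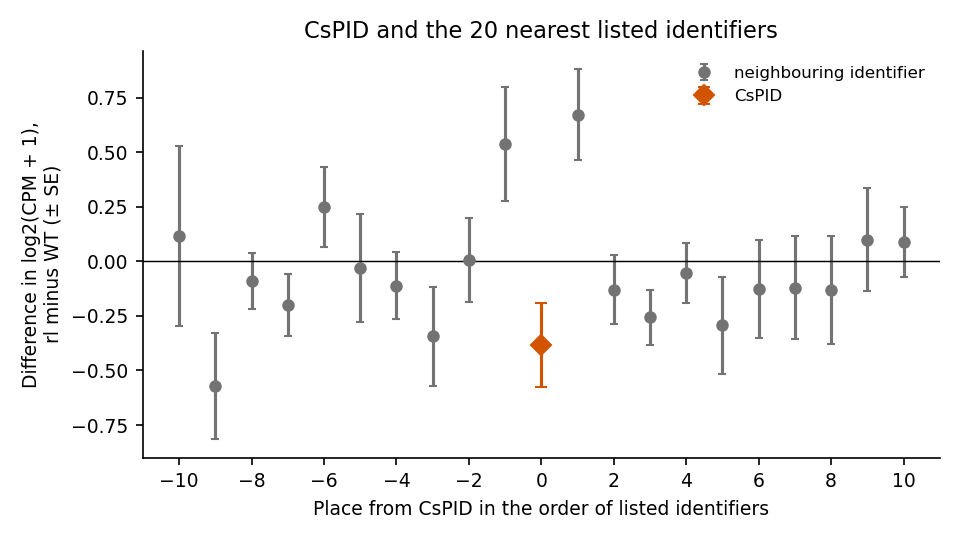
Difference in log2(CPM + 1), rl minus WT (vertical axis, bars give the SE), for CsPID (diamond) and the 10 listed identifiers on each side of it in number (circles), by place in that order (horizontal axis). CsPID lies at -0.38 between nearest identifiers at 0.54 and 0.67.

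The genes whose pattern across the 4 libraries came closest to that of CsPID were Csa4G637170 and Csa5G182730. Likeness was the Euclidean distance between profiles of log2(CPM + 1), each centred on its own mean, and it was 0.0105 and 0.0312 for these 2 genes. Csa4G637170 measured 3.49 and 5.14 CPM in rl replicates 1 and 2, against 6.29 and 5.53 CPM in WT replicates 1 and 2. Csa5G182730 measured 385 and 513 CPM in rl replicates 1 and 2, against 622 and 556 CPM in WT replicates 1 and 2. In both, as in CsPID, rl replicate 1 was the lowest library and WT replicate 1 the highest. Their log2 differences were -0.39 (SE 0.24, limma adjusted p = 0.733) and -0.40 (SE 0.20, limma adjusted p = 0.677). Both genes were picked on these same 4 libraries, so their order of libraries and their differences follow from that choice. A distance of at most 0.1 was found for 28 genes and one of at most 0.25 for 639 genes (3.66%), so 4 libraries leave the likeness loosely fixed.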

How the data were processed

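Trizol was used to isolate total RNA from female buds, and libraries were run on Illumina HiSeq, per the labels' protocols. HISAT and HTSeq were used, per the submitters' processing notes. Not given in the sources used here are the genome build, gene models, strand setting and tool versions. Genes that overlap CsPID or share near-identical sequence could therefore have changed its read count, in a direction that is not known. The authors deposited 1 table of CPM values, in which each column sums to 1000000. Dividing by the lowest value above 0 gave whole reads for 100% of values in every library (tolerance 1e-06 reads), so read counts were recovered; 3 reads correspond to 0.164 to 0.171 CPM. The RefSeq gene table matched 0 of 17480 identifiers, so PIN carriers and other auxin genes are not analysed here, tissue markers were not checked, and no sequence is shown.

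Genotypes were compared over all genes by a two-sided limma test (version 3.58.1, R 4.3.3) of log2(CPM + 1), with a mean-variance trend, no covariate and Benjamini-Hochberg adjustment. All genes met the minimum of 1 CPM in 2 libraries. Adding 1 CPM understates the change of low genes. Alternatives were edgeR 4.0.16 and DESeq2 1.42.0 on recovered reads, other pseudocounts, filters, scalings and eBayes settings, a replicate block and leaving out each library. The tests were also run on simulated data. Every change set there was larger than the CsPID difference, so those runs do not bear on a difference of its size. Counting intervals are exact Poisson for a level and exact Clopper-Pearson for a ratio (SciPy 1.17.1). The genes named were CsPID, the nearest listed identifier on each side, and the 2 genes nearest in pattern. The rule for CsPID uses only its identifier, but the gene and all these rules were chosen with earlier results of these data known.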

Additional observations from a re-analysis of the deposited data

How the results depend on the processing

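The CsPID difference was negative (lower in rl) in all 15 alternatives and passed in 0 of them. In the 11 alternatives that kept every library it ran from -0.39 to -0.34 on the log2 scale, with adjusted p of 0.542 to 0.974. Both edgeR (-0.37, adjusted p = 0.669) and DESeq2 (-0.37, adjusted p = 0.974) on recovered reads lay within this range. Leaving out 1 library gave -0.61 to -0.16 (lowest adjusted p 0.221). The sign could not turn there or with another pseudocount, because the libraries do not overlap. The filters, the eBayes settings and the replicate block cannot change the estimate, which was -0.38 in each. With the replicate block the difference was -0.38 (limma adjusted p = 0.542); no label says that a number marks a shared plant or day, and across genes the replicate differences of rl and WT had a correlation of 0.18. Over all genes, 5 were called (5 lower in rl, 0 higher), against 117 with the replicate block (85 lower, 32 higher), 291 with DESeq2 (192 lower, 99 higher) and 0 to 125 when 1 library was left out (66 lower and 59 higher without rl replicate 2); the cause was not tested. Counts with other alternatives were 5 to 7, 0 to 2 of them higher. Of the nearest identifiers, 70.0% had a lower mean log2(CPM + 1) in rl with 5 and with 20 on each side, beside 51.8% of all genes. Both rl libraries lay below both WT libraries in 3 of 10 and 16 of 40, beside 21.3% of all genes. CsPID had 472 to 748 reads a library. At this depth the counting intervals of the rl libraries did not overlap and those of the WT libraries did. The ratio of WT replicate 1 to WT replicate 2 was nevertheless 1.12, with a counting interval of 1.01 to 1.24 that leaves out no difference.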
